A study of Mus musculus with 10 samples.

Results

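Lamina propria macrophages of the small intestine were examined 24 h after stroke for 9 genes whose products recognise, bridge and take up apoptotic cells: the receptor tyrosine kinases Mertk, Axl and Tyro3, their ligands Gas6 and Pros1, the bridging protein Mfge8, the transglutaminase Tgm2, and the integrin subunits Itgav and Itgb5. The members were taken by gene name, and 9 of 9 were found among the 17279 genes listed in the table. The design compared 5 libraries from sham-operated mice (sham) with 5 libraries from mice that had undergone permanent middle cerebral artery occlusion (pMCAO), a surgical model of ischaemic stroke without reperfusion. All animals were labelled C57BL6/J, and the sorted population was described as GFP-positive for a reporter of Cx3cr1, the fractalkine receptor gene, from the peeled mucosa of the whole small intestine. The genotype label names no reporter allele, and age and sex are not labelled. The names of replicate 1 in each group mark it as a pool and list numbers after that word, more of them for pMCAO than for sham. No label says what these numbers stand for.

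Clearance of apoptotic cells, or efferocytosis, begins when phosphatidylserine appears on the outer face of a dying cell. Gas6 and protein S (Pros1) bind this lipid and present the cell to the TAM receptors Tyro3, Axl and MerTK, whereas Mfge8 binds the lipid and engages integrins that contain the alpha V subunit. Intestinal macrophages lie beneath a rapidly renewing epithelium and are known for taking up its dying cells without inflammation.

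The label of the cells was checked first. All 10 macrophage markers were listed, and their summed level, in CPM (counts relative to a library size scaled by the trimmed mean of M-values, TMM), was between 3464 and 9954 in sham and between 4931 and 11070 after pMCAO. Adgre1, which encodes F4/80, lay between 199 and 893 over the 10 libraries. Transcripts of other cells were present as well. The summed markers of eosinophils and mast cells, mostly from the mast cell proteases Mcpt1 and Mcpt2, ranged from 2113 to 19936 in sham and from 428 to 6476 after pMCAO, and those of B and plasma cells from 823 to 24745 and from 1128 to 27273. Epithelial markers summed to between 126 and 1225, monocyte markers to between 594 and 2226, and glial and neuronal markers to at most 7.17. Stromal markers summed to at most 77.8 and endothelial markers to at most 12.6. Markers of stroma (Lum) and endothelium (Kdr) had no count in 1 library each, and Tek, Tie1 and Plvap were not among the listed genes. Total counts lay between 18894151 and 60665972 in sham and between 6430643 and 28672285 after pMCAO. Sham replicate 5 and pMCAO replicate 4 stood apart in Xist, the RNA of the inactive X chromosome, with 1755 and 4460 CPM against at most 4.92 in the other libraries, so the fold change of each member is also given without both of them. Sham replicate 5 also had the lowest and pMCAO replicate 4 the highest macrophage marker sum, so leaving them out removes both extremes of that sum as well. The labels call the libraries biological replicates without naming animals, and p-values measure the spread between these libraries. In sorted bulk samples, fewer cells of a type and less RNA per cell cannot be told apart.

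The transcripts of the 3 TAM receptors differed greatly in level. Their promoters, 250 bases before to 50 after the RefSeq start on GRCm38.p6, are shown because 2 of these genes were among the strongly expressed members and 1 was close to absent. Capitals mark GC boxes (GGGCGG) and a core motif of ETS factors such as PU.1 (GAGGAA), each searched on both strands, and overlapping matches run together. The windows are chr2:128698665-128698964 on the plus strand for Mertk, chr7:25788684-25788983 on the minus strand for Axl and chr2:119799264-119799563 on the plus strand for Tyro3. The gene spans given below come from another annotation. The windows of Mertk and Axl contain the start of their span, whereas that of Tyro3 lies inside its span, which begins at 119797733.

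Mertk: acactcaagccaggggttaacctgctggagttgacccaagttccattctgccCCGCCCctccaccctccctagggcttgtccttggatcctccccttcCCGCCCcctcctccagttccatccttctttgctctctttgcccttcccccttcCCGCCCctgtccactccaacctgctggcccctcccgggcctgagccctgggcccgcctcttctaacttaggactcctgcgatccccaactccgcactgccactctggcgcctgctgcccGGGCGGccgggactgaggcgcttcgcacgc

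Axl: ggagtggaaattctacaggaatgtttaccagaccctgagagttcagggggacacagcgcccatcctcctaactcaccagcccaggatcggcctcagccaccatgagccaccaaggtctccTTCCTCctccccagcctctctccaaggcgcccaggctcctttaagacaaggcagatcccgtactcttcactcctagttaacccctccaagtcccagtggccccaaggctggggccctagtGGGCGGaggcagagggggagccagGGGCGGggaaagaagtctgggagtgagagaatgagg

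Tyro3: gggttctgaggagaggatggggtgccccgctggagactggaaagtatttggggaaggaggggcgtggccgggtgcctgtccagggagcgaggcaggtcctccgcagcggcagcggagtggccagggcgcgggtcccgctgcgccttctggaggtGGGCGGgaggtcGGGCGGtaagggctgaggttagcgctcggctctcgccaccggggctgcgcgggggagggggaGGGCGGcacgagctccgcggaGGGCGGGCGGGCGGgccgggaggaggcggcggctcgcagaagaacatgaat

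The Tyro3 window held 6 GC boxes and 31 CpG dinucleotides, against 4 and 14 for Mertk and 2 and 6 for Axl. The ETS core matched once in Axl and not in these windows of Mertk and Tyro3. GC boxes were found in all 8 member promoters of the RefSeq table and in 35.7% of its 32851 promoters. The ETS core was found in 3 of the 8 (Axl, Itgav and Mfge8) and in 28.3% of all. Neither an AP-1 site (TGANTCA) nor a TATA box (TATAAA) was matched in the 8 windows, against 7.81% and 13.6% of all promoters. A match describes the letters of the window and no binding was measured. Tgm2 had no entry.

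To compare levels between genes, TMM-scaled CPM were divided by the length of the gene's exons in kilobases. Axl was the highest member, with a median over the 10 libraries of 67.0 CPM per kb and a range from 34.0 to 130.3. Itgb5 (median 47.3) and Mertk (43.5) followed, and Itgb5 was above Mertk in 5 of 10 libraries, so that their order is not settled. Gas6 (32.9) was below Mertk in 7 of 10, and Itgav (21.7) was below Gas6 in 7 of 10. When the longest transcript stood for the length, Itgav moved ahead of Gas6 in the order (medians 33.1 and 32.9, Itgav higher in 5 of 10). Pros1 (10.8) and Tgm2 (7.80) formed a lower step, and their ranges overlapped too. Axl, Itgav, Tgm2 and Mfge8 were above the next gene in all 10 libraries. Mfge8 was at a median of 0.958 CPM per kb and Tyro3 at 0.0617, and the range of Mfge8 overlapped with neither Tgm2 nor Tyro3. By the longest transcript, Mfge8 reached 3.88 and Tgm2 went down to 3.26, so those ranges overlapped, although Tgm2 was still higher in each of the 10 libraries.

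**Figure D1:**
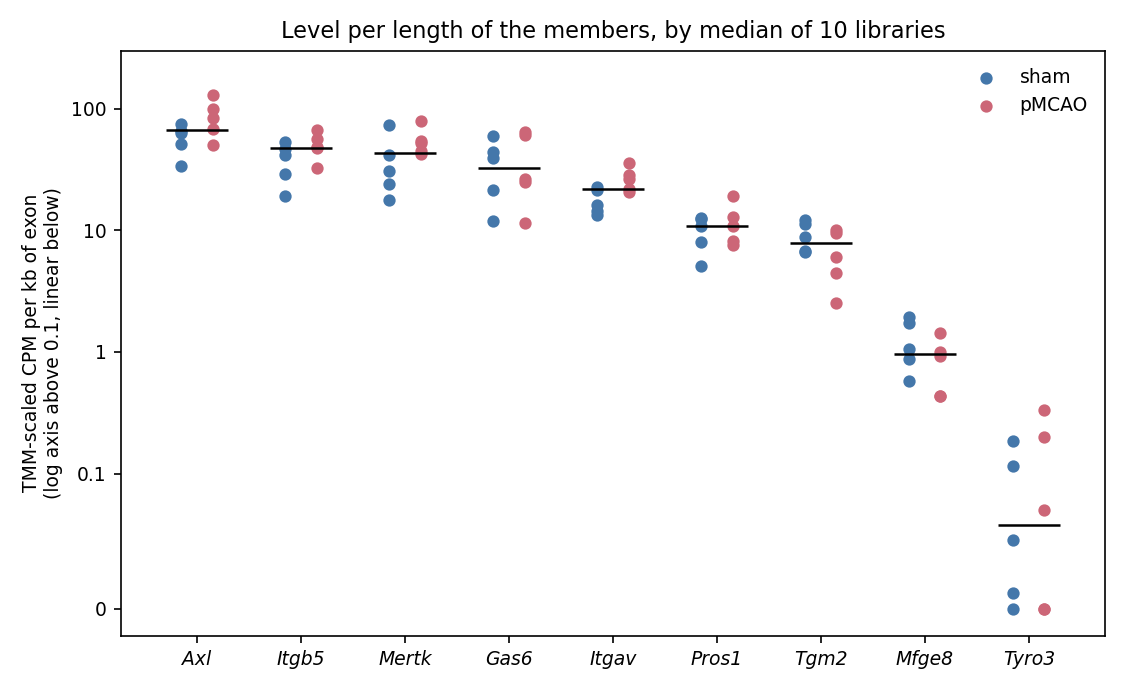
Level per length of the 9 members in each library (TMM-scaled CPM per kb of exon, log axis above 0.1 and linear below), with sham in blue, pMCAO in red and the median of 10 libraries as a line. Axl had the highest median (67.0), Mfge8 was at 0.958, and Tyro3 lay between 0 and 0.331.

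Among the TAM receptors, Axl made up from 47.2% to 74.3% of their summed level per length in sham and from 51.3% to 71.3% after pMCAO. Nearly all of the remainder was Mertk, and Tyro3 never exceeded 0.215%. Axl was above Mertk in 9 of 10 libraries. The exception was sham replicate 4, in which the ratio of Axl to Mertk was 0.896, against 1.40 to 2.90 in the other sham libraries and 1.06 to 2.49 after pMCAO. By the longest transcript the lowest ratio was 1.05, and Axl was above Mertk in 10 of 10. Gas6 was above Pros1 per length in all 10 libraries, with ratios between 1.51 and 5.94, and Itgb5 was above Itgav in all 10, with ratios between 1.33 and 3.28. By the longest transcript Itgb5 was above Itgav in 9 of 10, with ratios between 0.947 and 2.33 and pMCAO replicate 1 as the exception. The ranges of all 3 ratios overlapped between the groups.

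After pMCAO, 0 of the 9 members passed an adjusted p of 0.05 in edgeR's quasi-likelihood test, as did 0 of all 16949 genes tested (0%). At an unadjusted p under 0.05 stood 1 member, Itgav, or 11.1%, beside 799 genes or 4.71% of all tested. In 0 members did the groups fail to overlap, beside 0.985% of all genes. Of the members, 7 had a higher and 2 a lower estimate after pMCAO, and the median log2 fold change was 0.41, against −0.0059 over all genes tested. Over all genes tested, 49.4% had a higher estimate. Gas6, Pros1 and Tyro3 are counted among the 7, although the direction of each turned in some alternatives. Gas6 turned with limma-voom and when certain libraries were left out. Tyro3, at very low counts, turned when certain libraries were left out, and Pros1 turned without both Xist libraries.

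**Figure D2:**
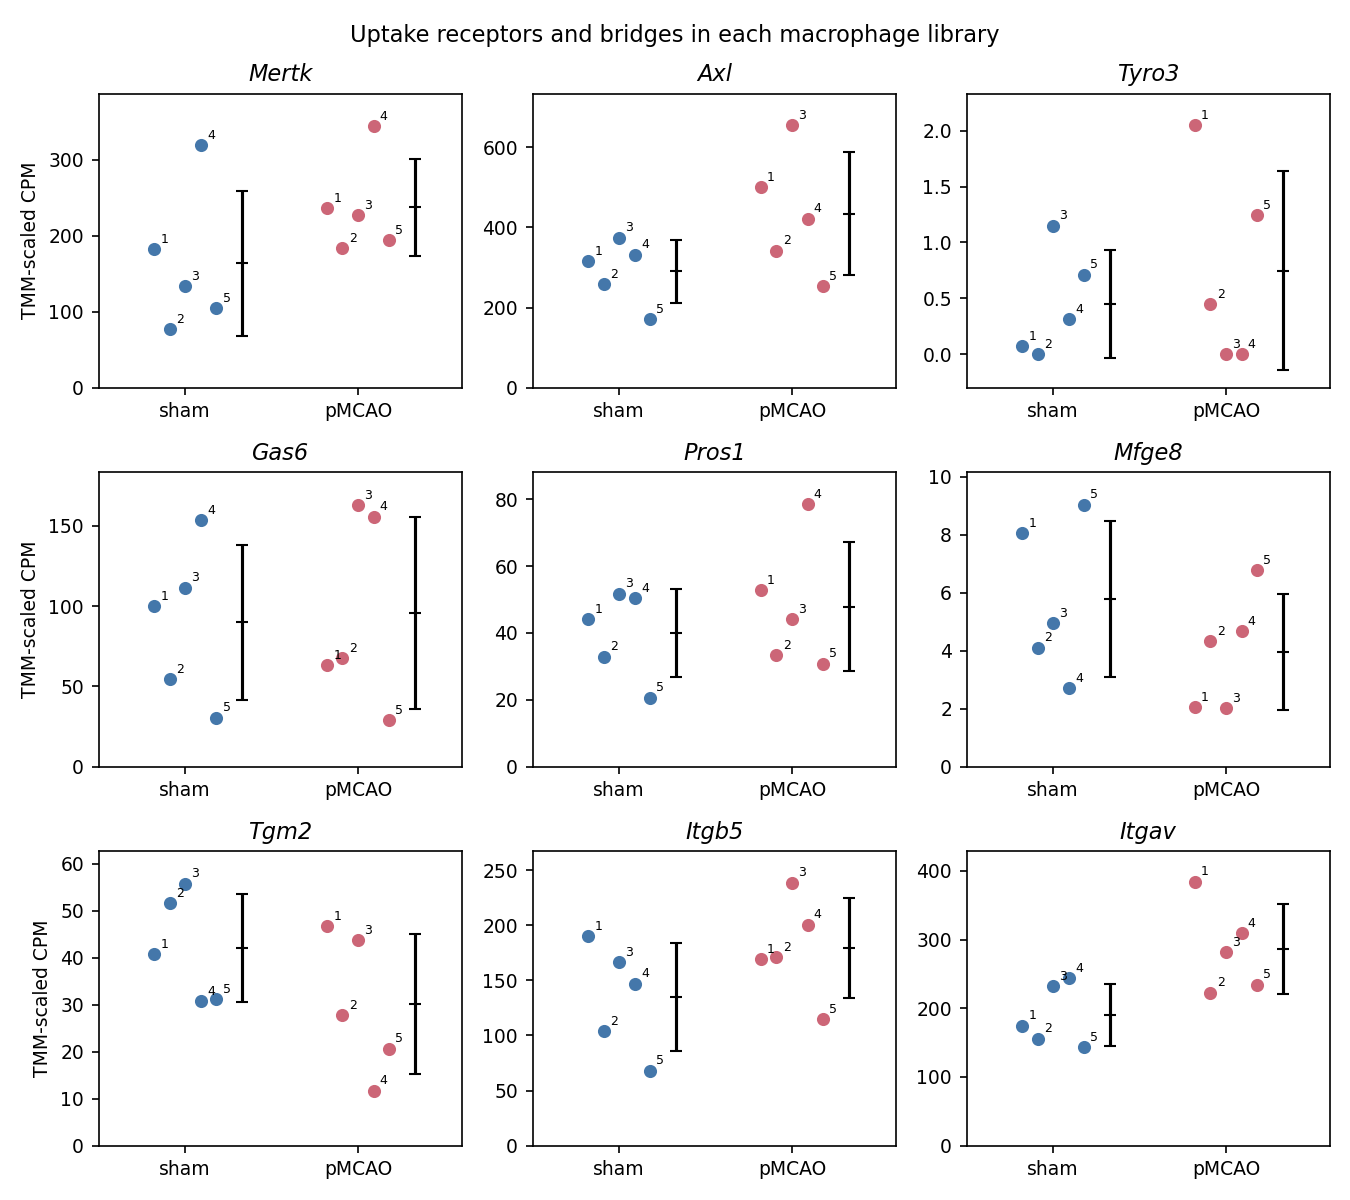
TMM-scaled CPM of each member in each library, numbered by replicate (blue sham, red pMCAO), with the group mean and SD (n = 5) as a black bar beside the points. The groups overlap in all 9 panels, and in Itgav the lowest pMCAO library (223) lies below the highest sham library (244).

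Mertk encodes MerTK, the receptor on which macrophages of many tissues rely for clearance of apoptotic cells (chromosome 2, 128698956 to 128802894, GRCm38, plus strand, 19 exons in its longest transcript). It was at 182, 76.9, 134, 319 and 105 TMM-scaled CPM in sham replicates 1 to 5 and at 236, 183, 227, 345 and 194 in pMCAO replicates 1 to 5. All 5 pMCAO libraries were above the sham median, but sham replicate 4 was above 4 of them. The means were 163 ± 95.5 in sham and 237 ± 64.0 after pMCAO (SD, n = 5), a log2 fold change of 0.54 (standard error 0.34, 95% interval −0.20 to 1.27). The adjusted p was 0.922. Without sham replicate 4 the log2 fold change was 0.92, and the adjusted p was 0.708. This setting removes the sham library with the most Mertk. The groups then no longer overlapped in Mertk, nor in 2.76% of all genes, against 0.985% with all libraries. Without both Xist libraries the log2 fold change was 0.24. That setting removes pMCAO replicate 4, the library with the most Mertk, and sham replicate 5, the library with the second least.

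Axl encodes a receptor that binds Gas6 and is known to be induced in inflamed macrophages (chromosome 7, 25757273 to 25788705, minus strand, 20 exons). It was at 316, 259, 374, 332 and 171 CPM in sham replicates 1 to 5 and at 500, 342, 656, 422 and 254 in pMCAO replicates 1 to 5. In 3 pMCAO libraries the level was above the highest sham library, whereas pMCAO replicate 5 was below the sham median. The log2 fold change was 0.58 (standard error 0.27), and its 95% interval reached from −0.0055 to 1.17. The adjusted p was 0.922. The estimate was 0.45 without both Xist libraries and 0.38 without pMCAO replicate 3, the library with the most Axl.

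Tyro3, the TAM receptor best known from the nervous system (chromosome 2, 119797733 to 119818104, plus strand, 20 exons), was barely detected. Its counts were 2, 0, 40, 5 and 55 in sham replicates 1 to 5 and 14, 12, 0, 0 and 38 in pMCAO replicates 1 to 5. The highest library, pMCAO replicate 1, was at 2.05 CPM. A count of 0 allows up to 0.0970 CPM in sham replicate 2, 0.303 in pMCAO replicate 3 and 0.246 in pMCAO replicate 4 (3 counts, counting error only). The log2 fold change of 0.69 had a 95% interval from −2.15 to 3.52, without both pooled libraries it was −0.30 and without both Xist libraries 1.23, so no direction was detectable at this depth.

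Of the ligands, Gas6 binds all TAM receptors (chromosome 8, 13465374 to 13494490, minus strand, 15 exons). It was at 99.8, 54.8, 112, 153 and 30.6 CPM in sham replicates 1 to 5 and at 63.3, 67.7, 163, 156 and 29.1 in pMCAO replicates 1 to 5. The groups covered nearly the same range, and replicate 5 was the lowest library of each. Its log2 fold change was 0.089 (95% interval −0.97 to 1.15). The adjusted p was 0.989. The sign turned without both Xist libraries, with an estimate of −0.38.

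Pros1 encodes protein S, a plasma anticoagulant that also activates MerTK and Tyro3 (chromosome 16, 62854307 to 62929346, plus strand, 15 exons). It was at 44.1, 32.9, 51.8, 50.4 and 20.7 CPM in sham replicates 1 to 5 and at 52.8, 33.3, 44.1, 78.6 and 30.8 in pMCAO replicates 1 to 5. Only pMCAO replicates 1 and 4 were above the highest sham library, the former by a narrow margin. Pros1 had a log2 fold change of 0.26 (standard error 0.30, adjusted p = 0.943). Without both Xist libraries it was −0.16, and without pMCAO replicate 4 alone 0.00028.

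Mfge8, the bridge to alpha V integrins (chromosome 7, 79133768 to 79149060, minus strand, 6 exons in its longest transcript), had a low level in these libraries. It was at 8.06, 4.11, 4.95, 2.70 and 9.04 CPM in sham replicates 1 to 5 and at 2.05, 4.32, 2.02, 4.67 and 6.77 in pMCAO replicates 1 to 5. Of the pMCAO libraries, 4 were below the sham median, and the counts behind these values fell to 14 in pMCAO replicate 1. Its estimate on the log2 scale was −0.53 (95% interval −1.54 to 0.48, adjusted p = 0.924). It was −0.38 without both Xist libraries and −0.22 without both pooled libraries.

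Tgm2 encodes tissue transglutaminase, which is known to assist the integrin in uptake by macrophages (chromosome 2, 158116402 to 158146436, minus strand, 13 exons). It was at 40.7, 51.6, 55.7, 30.7 and 31.2 CPM in sham replicates 1 to 5 and at 46.7, 27.8, 43.6, 11.7 and 20.6 in pMCAO replicates 1 to 5. In 3 pMCAO libraries it was below the lowest sham library, and in the other 2 above the sham median. For Tgm2 the log2 fold change was −0.48 (standard error 0.34, adjusted p = 0.922). It was −0.37 without both Xist libraries and −0.29 without pMCAO replicate 4 alone, the library with the least Tgm2. Of its exon bases, 8.03% are shared with Rprd1b on the other strand, which had 8206 counts over the 10 libraries against 9864 for Tgm2. A further 13.7% are shared with Gm20412, also on the other strand and not among the listed genes. Without strand, reads from these stretches cannot be assigned to one gene.

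Itgav encodes the alpha V subunit, the common partner of several beta subunits (chromosome 2, 83724397 to 83806916, plus strand, 30 exons). It was at 175, 156, 232, 244 and 143 CPM in sham replicates 1 to 5 and at 385, 223, 282, 309 and 234 in pMCAO replicates 1 to 5. All 5 pMCAO libraries were above the sham median and 3 above the highest sham library. The means were 190 ± 45.5 and 287 ± 65.0 (SD, n = 5). The log2 fold change was 0.59 (standard error 0.21), or 1.51-fold with a 95% interval from 1.10 to 2.05, the only interval of the 9 that lay above 0 on the log2 scale. The unadjusted p of 0.0137 ranked 179 among 16949 genes, and the adjusted p was 0.922. On the log2 scale the estimate was 0.47 without both Xist libraries and 0.43 without both pooled libraries, where the unadjusted edgeR p was 0.0637 and 0.0862. Gm13684, on the other strand, shares 5.90% of the exon bases of Itgav and had 1383 counts against 55161.

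Itgb5, the beta 5 subunit that pairs with alpha V (chromosome 16, 33829665 to 33949338, plus strand, 15 exons), was at 190, 104, 166, 147 and 68.0 CPM in sham replicates 1 to 5 and at 169, 171, 239, 201 and 115 in pMCAO replicates 1 to 5. In 4 pMCAO libraries it was above the sham median. Itgb5 differed by 0.41 on the log2 scale (standard error 0.27, 95% interval −0.19 to 1.00), with an adjusted p of 0.922. Without both Xist libraries it was 0.19.

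**Figure D3:**
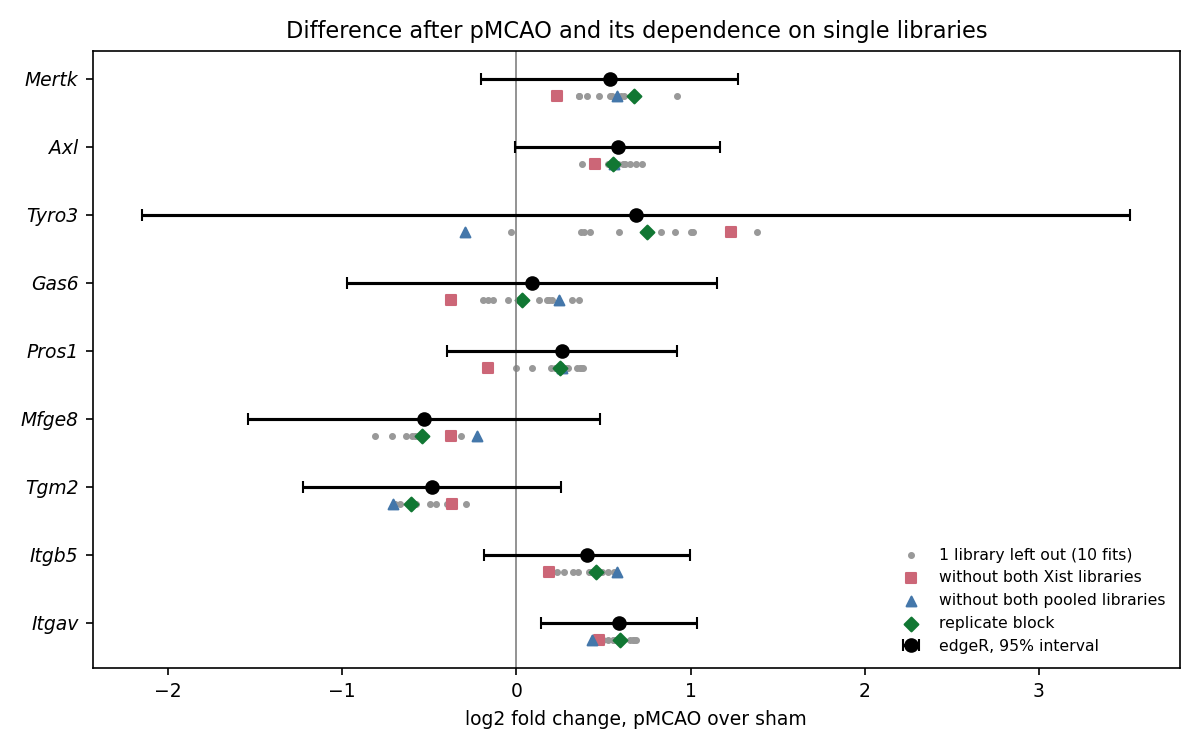
Log2 fold change of pMCAO over sham for each member, with the edgeR estimate and its 95% interval in black and, below it, the estimates with single libraries or both Xist or pooled libraries left out or with replicate numbers entered as a block. Axl, Mertk, Itgb5 and Itgav stay to the right of 0 and Mfge8 and Tgm2 to the left in all fits shown, while Gas6, Pros1 and Tyro3 lie on both sides.

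The spread among libraries was wide and partly shared. Itgav was the steadiest member, with an SD of 0.34 in sham and 0.32 after pMCAO on the log2 CPM scale, and its biological coefficient of variation of 0.276 was below that of most genes (percentile 17.9 of those tested). Gas6 was among the most variable of the well-expressed members, with an SD of 0.92 and 1.03 and a coefficient of 0.546. Sham replicate 5 was the lowest of all 10 libraries for Axl, Pros1, Itgb5 and Itgav and the second lowest for Mertk and Gas6. The same library had the lowest sum of macrophage markers (3464 CPM), the highest sum of eosinophil and mast cell markers (19936) and the highest sums of T cell and dendritic cell markers (411 and 631). Mfge8 went the other way and was highest in sham replicate 5. The 2 libraries with the highest macrophage sums, pMCAO replicates 3 and 4, were also the 2 highest for Gas6 and Itgb5.

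**Figure D4:**
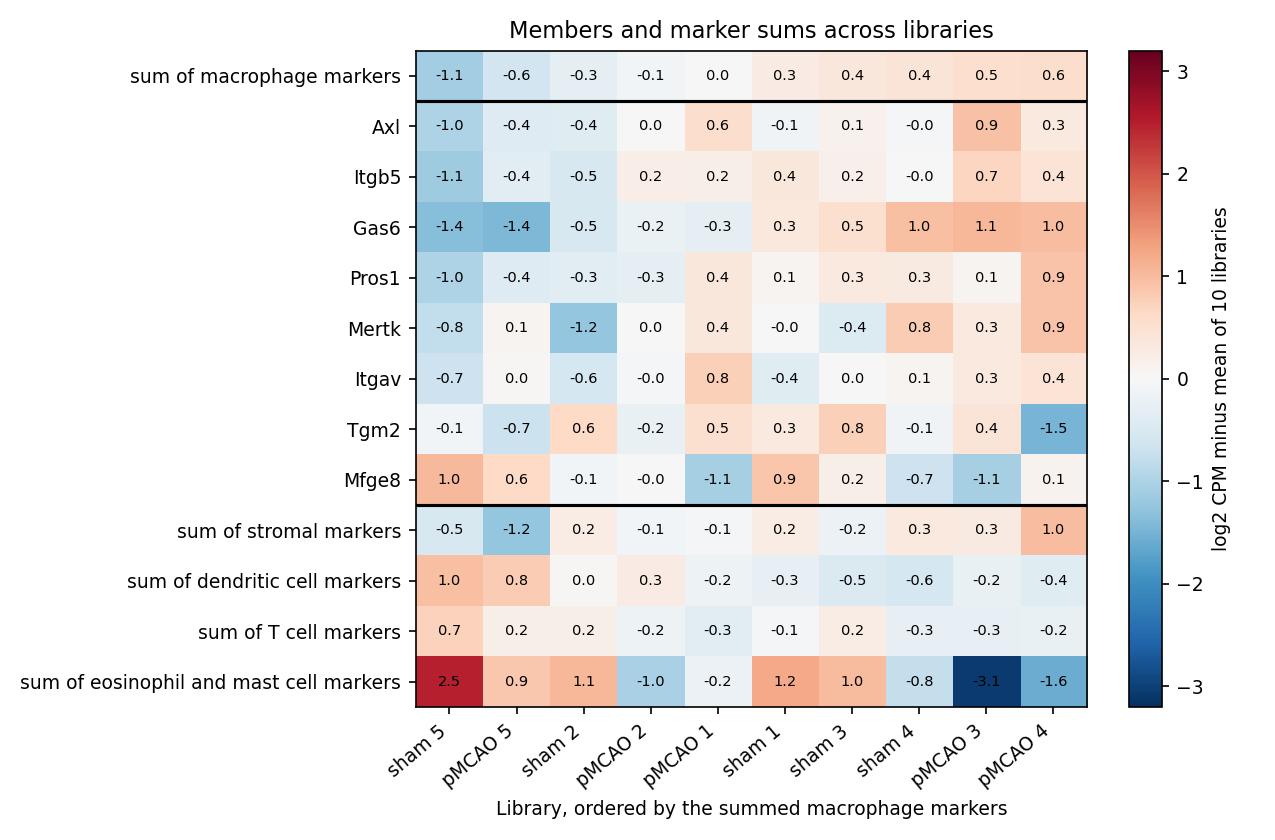
Members and summed marker lists in each library as log2 CPM minus the mean of the 10 libraries, with the libraries ordered by the macrophage marker sum from left to right. Axl, Itgb5, Gas6 and Pros1 are low in sham 5 on the left and mostly high on the right, Mfge8 is high in sham 5, and the eosinophil and mast cell sum is highest in sham 5 and lowest in pMCAO 3.

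The marker sums were compared between the groups, and a change in cell content was not tested. The macrophage sum had no settled direction, with a mean of 7617 ± 2783 in sham and 8307 ± 2662 after pMCAO (SD, n = 5) but medians of 8991 and 7516. The median of the eosinophil and mast cell sum was 7483 in sham and 1745 after pMCAO, with overlapping ranges. Its main genes, Mcpt1 and Mcpt2, had log2 fold changes of −1.86 and −1.82. In edgeR's test their unadjusted p was 0.0180 and 0.0228, and the adjusted p was 0.922 for each. Over the 10 libraries, Pearson's r between log2 CPM and the log2 of this sum was −0.84 for Axl, −0.77 for Itgb5 and −0.69 for Gas6. It was −0.68 for both Mertk and Itgav, −0.57 for Pros1, 0.24 for Tgm2, 0.42 for Tyro3 and 0.74 for Mfge8. When library sizes were set by the summed macrophage markers, the median over all genes shifted to −0.23. With these sizes the log2 fold change was 0.44 for Mertk, 0.41 for Axl, 0.44 for Itgav and 0.29 for Itgb5, each below its TMM-scaled estimate. It was 0.12 for Pros1, −0.083 for Gas6, −0.79 for Mfge8 and −0.68 for Tgm2. The unadjusted edgeR p of Itgav was 0.203. Relative to the shift of all genes, the values were 0.67 for Mertk, 0.63 for Axl, 0.67 for Itgav and 0.52 for Itgb5. They were 0.35 for Pros1, 0.15 for Gas6, −0.56 for Mfge8 and −0.45 for Tgm2. No member passed an adjusted p of 0.05 on this scale. The part of the other cell types in the members' values was not tested.

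For each member, the genes with the most similar log2 CPM profile over the 10 libraries were listed by Pearson's r, as a description of libraries that differ in depth and cell content. The top 3 were picked from 9045 or 9046 genes compared per member. With so many genes and only 10 libraries, unrelated genes can also reach a high r. For Itgb5 they were Itga9 (0.960), Ctsh (0.954) and Csf1r (0.943), the last encoding the receptor for the macrophage growth factor CSF1. For Pros1 they were Atp2b1 (0.971), Adgre1 (0.971) and Kitl (0.967). Axl was nearest to Itga9 (0.962), Epb4.1l2 (0.959) and Arl8a (0.958), so that Itga9 stood first for both Axl and Itgb5. Gas6 was nearest to Rin2, C5ar1 and Trim47 (0.968 each), Mertk to Ppp1r21 (0.971), Pign (0.954) and Tmem87b (0.953), and Itgav to Skap2 (0.950), Tmem26 (0.932) and Camk2d (0.928). Tgm2 had the least similar neighbours among the genes above 1 CPM per kb, with Clca3b (0.909), Prkag1 (0.905) and Dda1 (0.901). Mfge8 was nearest to Icmt (0.957), Add1 (0.930) and Ddx39 (0.925), and Tyro3, at very low counts, to Mre11a (0.920), Maz (0.894) and Gtf2e1 (0.870).

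The rest of the uptake pathway was read from 7 lists of 79 genes, of which 71 were tested. None of these passed an adjusted p of 0.05 in edgeR's test, and 6 had an unadjusted p under 0.05 (8.45%, beside 4.71% of all genes), or 3 without both Xist libraries. Of the 71, 39 had a higher and 32 a lower estimate, with a median log2 fold change of 0.045. The members with the smallest unadjusted p in each list were as follows, and all had an adjusted p of at least 0.922.

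Among the 16 other uptake receptors tested, 10 had a higher estimate (median log2 fold change 0.28). Cd300a, an inhibitory receptor for phosphatidylserine and phosphatidylethanolamine, lay between 146 and 165 CPM in sham and between 141 and 228 after pMCAO, and its log2 fold change was 0.34. Lrp1, a large endocytic receptor that also binds calreticulin, had 0.45. Among the 10 other bridging molecules tested, 8 had a lower estimate (median −0.19). Calr, which encodes calreticulin, was at 301 ± 78.1 in sham and 204 ± 76.0 after pMCAO, a log2 fold change of −0.56, and Lgals3, which encodes galectin-3, had −0.43. The complement components C1qa, C1qb and C1qc, which also coat apoptotic cells and are counted among the macrophage markers too, had 0.047, −0.012 and −0.058.

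Of the 4 other partners of alpha V, 2 had a higher and 2 a lower estimate, with Itgb6 at −0.78 and Itgb3 at −0.74, both weakly expressed (at most 7.28 and 25.5 CPM). In the engulfment machinery, 10 of 14 genes had a higher estimate with a median of 0.096, and the adaptors Crkl and Crk had 0.31 and 0.20. Of the 5 brakes and sheddases, 3 had a higher estimate (median 0.17), and Adam10 and Adam17, proteases of which the latter is known to shed MerTK from the cell surface, had 0.27 and 0.32. In the list of TAM feedback, 1 of 5 genes had a higher estimate (median −0.034), and this gene, Socs1, an inhibitor of cytokine signalling, had 0.69 at 1.19 ± 0.529 CPM in sham.

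Of these named genes, the largest estimates were in the list of cargo handling and nuclear receptors. Some genes of other lists, not named by their p, had estimates further from 0. Abca1 and Abcg1, which export cholesterol and are known targets of the liver X receptors, were higher by 0.93 (standard error 0.30) and 0.93 (standard error 0.35) on the log2 scale. Abca1 was between 153 and 427 CPM in sham and between 362 and 778 after pMCAO, and Abcg1 between 11.7 and 70.2 and between 62.6 and 102, so the groups overlapped in both. Their unadjusted p of 0.00947 and 0.0214 did not pass the adjustment over all genes. Over all 17 tested genes of that list, 11 had a higher estimate and the median was 0.086.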

How the data were processed

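RNA sequencing libraries of sorted lamina propria macrophages, 5 sham and 5 pMCAO, were analysed from 1 table. It holds raw counts per gene as deposited, and per the labels STAR and featureCounts were used with GRCm38, with no version given. The strand setting is not given in the sources used here. The deposited CPM, computed by the authors from each library's total, were not used. The deposited log2 fold change, mean log2 expression, p-value and FDR hold the authors' own comparison and were not used. Each of the 17279 listed genes has at least 10 counts in at least 2 libraries.

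Counts were filtered with filterByExpr (16949 genes), scaled by TMM and tested between groups by quasi-likelihood in edgeR 4.0.16 (R 4.3.3) without covariates, and p-values were adjusted by Benjamini-Hochberg over all genes. The log2 CPM used a prior count of 2. Exon lengths and positions came from GENCODE M21, whose identifiers and chromosomes matched for 9 of 9 members, and promoters from RefSeq (8 of 9 members). Named besides the members were the 2 genes of each pathway list with the smallest p, the 3 genes most like each member among those of at least 10 CPM, and genes of the marker lists. C1qa, C1qb and C1qc were added after their values were seen. Some genes are not reported here. The members and lists were chosen with earlier results of these data known. The alternatives were DESeq2 1.42.0, limma-voom with and without sample weights (limma 3.58.1), 3 other scalings, 2 filters, the replicate block, and leaving out libraries. Scripts were tested on simulated data. No pair of libraries agreed within sampling noise (smallest chi-square 39.2 times its degrees of freedom).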

Additional observations from a re-analysis of the deposited data

How the results depend on the processing

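No member passed an adjusted p of 0.05 under any of the 21 alternatives run, nor did a gene of the other pathway lists. Over all genes, DESeq2 called 3 and the other 20 alternatives 0. The cause of this and of the changes below was not tested. The number of genes at an unadjusted p under 0.05 was 799, and it was 1888 with sample weights, 200 with macrophage scaling, 1303 with the replicate block, 462 without both pooled libraries and 575 to 1268 when 1 library was omitted, highest without pMCAO replicate 2. The number of members at that limit was 1, and it was 2 with DESeq2, limma-voom, DESeq2 size factors, upper-quartile factors and the filter of more than 1 CPM in 5 libraries, 4 with sample weights, 5 with the replicate block, 0 with macrophage scaling, without both pooled libraries and without both Xist libraries, and 1 to 2 when 1 library was omitted. In the other pathway lists it was 6, and 1 with macrophage scaling, 3 without both pooled libraries, 3 without both Xist libraries and 3 to 7 when 1 library was omitted.

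The direction of 6 members (Mertk, Axl, Mfge8, Tgm2, Itgb5 and Itgav) was kept in all 21. The log2 fold change of Gas6 turned to −0.0089 with limma-voom, −0.26 with sample weights, −0.083 with macrophage scaling (0.15 relative to that scaling's shift of all genes by −0.23) and −0.38 without both Xist libraries, and leaving out single libraries gave −0.19 to 0.36. That of Tyro3 was −0.30 without both pooled libraries and −0.028 to 1.38 when 1 library was omitted, and that of Pros1 was −0.16 without both Xist libraries. The median of the members was between 0.19 and 0.47 in all 21. Genes whose groups did not overlap numbered 167, and 407 without both pooled libraries, 499 without both Xist libraries and 254 to 507 when 1 library was omitted. Among the members the number was 0, and 0 to 1 when 1 library was omitted, the 1 being Mertk without sham replicate 4. Measured against the longest transcript, Mfge8 was at a median of 1.93 CPM per kb and Itgav at 33.1.

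Replicate numbers are shared between the groups, but no label says that a number marks a shared animal or day. The correlation of same-numbered deviations was between −0.0055 and 0.411, with a mean of 0.226. Of 10 libraries, 5 correlated best with their own number among the 5 of the other group. With the replicate block, which took the unadjusted p to 0.00179 for Axl, 0.00403 for Itgav and 0.00429 for Mertk, the adjusted p of the members was still at least 0.565.

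The difference in mean log2 total counts was −1.18 (exact permutation p = 0.0476, smallest possible 0.0079). It was −0.93 without both pooled libraries (exact permutation p = 0.143) and −1.42 to −0.88 when 1 library was omitted, and in 7 of those 10 settings the exact permutation p was no longer under 0.05 (0.0794 to 0.119). Counts behind the weakly expressed members were as low as 0 for Tyro3 and 14 for Mfge8.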
